A study of Mus musculus with 24 samples.

Results

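A set of 10 genes of the mouse mammary epithelial surface was followed across 24 arrays. They are among the 18193 genes that had a probe set with a single gene name. They are Cd24a, which encodes the sort marker CD24, Epcam, the claudins Cldn1, Cldn3, Cldn4, Cldn7 and Cldn8, and the tight junction components Cgn, Tjp3 and Marveld2. The members were taken by gene symbol from the array annotation, which gave 20 probe sets. All 10 genes passed the filter on low values, as 10 of the 13485 genes tested. The tumour samples were 5 independent mammary adenocarcinomas (A to E). Their hosts were Apc+/1572T animals of the C57BL6/J strain, heterozygous for a shortened form of Apc, a brake on Wnt signalling. The normal samples were 3 pools of mammary glands (F to H) from Apc+/+ animals of the same strain. The labels used here name no count of animals per pool and no age. From every tumour and pool 10000 cells were sorted for each of 3 populations: Lin-CD29hiCD24+, the gate used for stem cells, Lin-CD29+CD24+, the gate used for their differentiated counterparts, and Lin-, which was depleted of lineage-marked cells and not gated on CD29 or CD24. There were thus 5 tumour and 3 normal arrays in each population. The study set out to compare tumour with normal cells of the CD29hiCD24+ gate, and each such gate with its differentiated counterpart in tumour and in normal tissue.

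Tight junctions seal the space between epithelial cells near their luminal side. Claudins are membrane-spanning proteins whose extracellular loops form the barrier strands, tricellulin (Marveld2) closes the points where several cells meet, and the cytoplasmic plaque proteins ZO-3 (Tjp3) and cingulin (Cgn) tie the strands to actin. EpCAM is an adhesion molecule that binds claudin-7 directly, and CD24 is a small lipid-anchored glycoprotein. In the mammary gland the luminal cells carry the tight junctions and stain strongly for EpCAM and CD24, while basal and myoepithelial cells have more CD29 (the integrin Itgb1) and less EpCAM.

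Promoter windows are shown for the claudin genes whose signals moved together (Cldn3, Cldn4 and Cldn7), for Epcam, and for Cldn1. Cldn1 was higher in tumours than in normal tissue, but in the normal CD29hiCD24+ gate it was lower, like the other members (-1.68). Each is the RefSeq window of 300 bases, from 250 before the gene start to 50 after it, on build GRCm38.p6 and written 5′ to 3′ on the gene's strand. Capitals mark CAGGTG or its reverse complement CACCTG, the E-box that transcription factors of the Snail and ZEB families are known to bind. Cldn3 (chr5:134985964-134986263, plus strand) and Cldn4 (chr5:134946885-134947184, minus strand) are neighbours on chromosome 5 with 39280 bases between them.
Cldn3: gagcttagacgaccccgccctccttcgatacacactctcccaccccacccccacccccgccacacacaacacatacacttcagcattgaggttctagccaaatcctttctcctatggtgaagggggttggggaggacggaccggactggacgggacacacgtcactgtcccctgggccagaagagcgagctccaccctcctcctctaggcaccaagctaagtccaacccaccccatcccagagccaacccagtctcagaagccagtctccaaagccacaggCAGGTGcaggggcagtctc
Cldn4: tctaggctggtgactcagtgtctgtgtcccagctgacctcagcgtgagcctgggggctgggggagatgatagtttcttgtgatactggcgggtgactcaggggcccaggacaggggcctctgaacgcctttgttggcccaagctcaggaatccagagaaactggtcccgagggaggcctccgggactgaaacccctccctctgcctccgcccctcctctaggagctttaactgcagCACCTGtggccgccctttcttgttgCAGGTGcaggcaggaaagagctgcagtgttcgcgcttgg
Cldn7, the second of its 2 windows (chr11:69965171-69965470, plus strand): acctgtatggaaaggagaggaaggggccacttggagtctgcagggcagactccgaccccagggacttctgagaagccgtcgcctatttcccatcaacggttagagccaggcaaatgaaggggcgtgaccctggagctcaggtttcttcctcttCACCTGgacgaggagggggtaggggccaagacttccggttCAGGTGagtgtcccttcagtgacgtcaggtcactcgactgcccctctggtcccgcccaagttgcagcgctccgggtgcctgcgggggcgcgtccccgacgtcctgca
Epcam (chr17:87635729-87636028, plus strand): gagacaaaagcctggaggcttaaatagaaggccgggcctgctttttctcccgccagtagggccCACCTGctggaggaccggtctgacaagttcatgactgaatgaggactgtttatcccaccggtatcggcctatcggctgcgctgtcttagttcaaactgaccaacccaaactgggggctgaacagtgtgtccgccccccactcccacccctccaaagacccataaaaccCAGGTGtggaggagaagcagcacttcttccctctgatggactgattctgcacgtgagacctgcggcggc
Cldn1 (chr16:26371790-26372089, minus strand): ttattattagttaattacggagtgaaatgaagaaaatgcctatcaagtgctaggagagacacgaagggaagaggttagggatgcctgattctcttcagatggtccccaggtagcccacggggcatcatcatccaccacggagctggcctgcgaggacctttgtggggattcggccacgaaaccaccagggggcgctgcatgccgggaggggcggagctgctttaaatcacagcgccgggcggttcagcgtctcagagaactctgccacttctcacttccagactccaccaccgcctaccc

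RefSeq windows were at hand for 8 of the 10 members (11 windows, none for Cd24a and Cldn8), and 6 of these 8 genes held the E-box in at least 1 window. Counted by window it was 8 of 11. Cldn4 held it 14 bases before its start and 12 bases after it, Epcam 187 and 19 bases before, Cldn7 97 and 57 bases before in the second window, and Cldn3 32 bases after its start. Tjp3 and Marveld2 held 1 match in each of their windows, but the Marveld2 windows overlap and their match is the same site. Cldn1, Cgn and the first Cldn7 window held none, and the windows of Cgn and the first of Cldn7 are not printed. Cgn nevertheless moved closely with the members, at a Pearson's r of 0.93 with the mean of the others over 24 arrays. Whether the E-box goes with the signals was not tested. Of all 32851 mouse windows of this length, 20.2% held at least 1 such E-box and 2.88% at least 2. A palindromic AACCGGTT, the site known for grainyhead-like factors, was in none of the member windows and in 0.146% of all windows. The letters are a description of the windows, and binding was not measured here.

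The arrays gave a log2 signal per probe set, on which a difference of 1 is a 2-fold difference. Array medians ran from 3.26 to 3.41, and no member's main probe set lay in the low band at or under 2.83, where differences are compressed. Group values are given as mean ± SD and log2 differences as estimate ± SE, with 95% intervals where given, and a gene was called at an adjusted p under 0.05 over all genes tested. Signals of different probe sets are not on a common scale, so levels are compared between samples and not between genes. Bulk arrays cannot tell fewer cells of a type from less RNA per cell. The label of the sorts was checked against defining genes: Itgb1, which encodes CD29, averaged 10.76 ± 0.53 in tumour CD29hiCD24+ and 10.16 ± 0.26 in tumour CD29+CD24+ arrays (SD, n = 5 each, adjusted p = 0.268), and 10.36 ± 0.51 in normal CD29hiCD24+ and 9.46 ± 0.34 in normal CD29+CD24+ arrays (SD, n = 3 each, adjusted p = 0.0588), and was not called in either. Erythroid markers (0 of 4) did not pass the filter in any population. The normal CD29hiCD24+ array of pool F stood apart from those of pools G and H. Of 7 leukocyte markers tested 0 lay in the low band there, with a mean of 7.62, against 5 in pool G and 4 in pool H. Its endothelial mean was 9.75, against 6.86 (G) and 7.76 (H), and its luminal mean 7.89, against 9.55 (G) and 9.94 (H), while the basal means were close, at 12.21 (F), 12.24 (G) and 12.51 (H). Many results that use this array are also given without it. A result given only once includes it, and such a single value does not show that the result would hold without it.

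The plot of the 10 genes by group shows the pattern in all arrays.

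**Figure D1:**
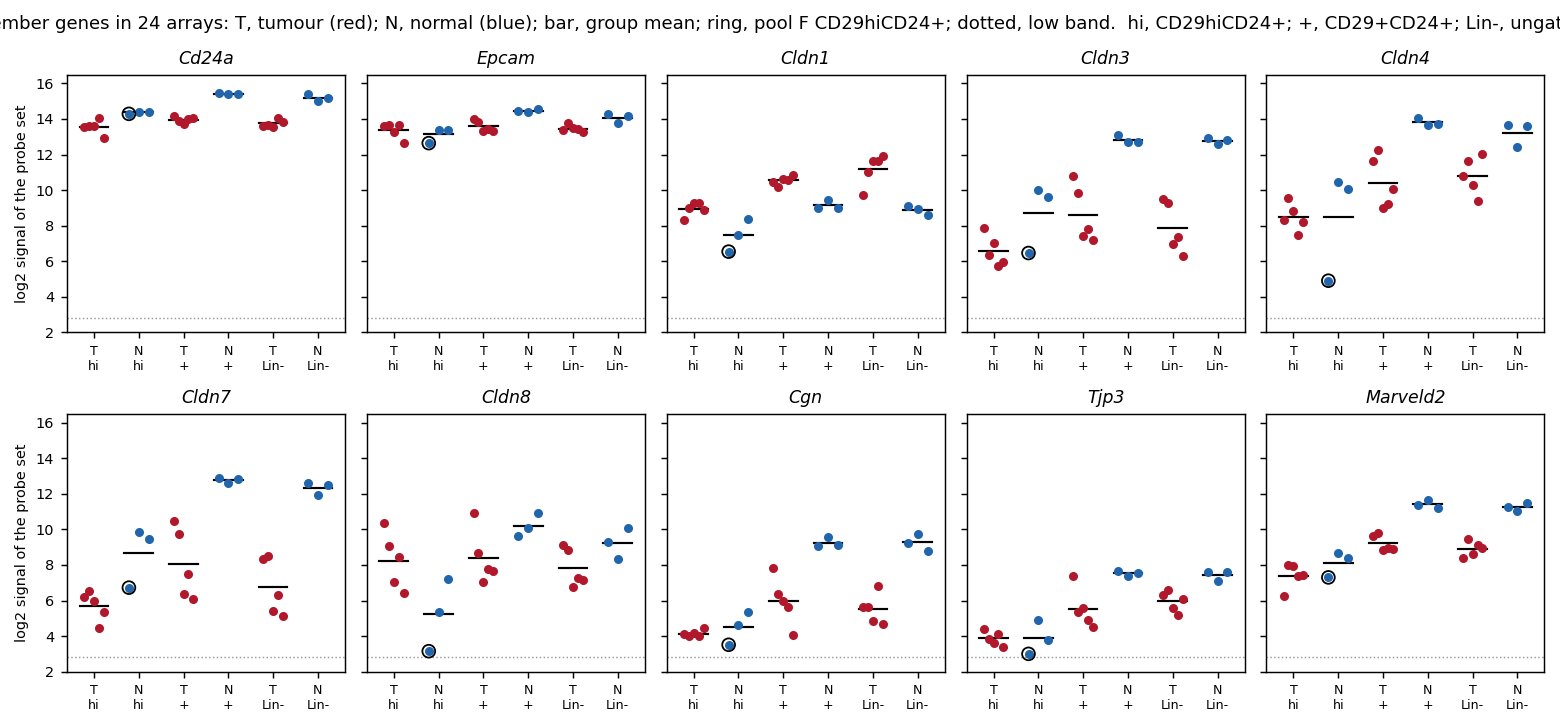
Log2 signal of the main probe set of each gene (vertical axis) in the 6 groups (horizontal axis, tumour left of normal within CD29hiCD24+, CD29+CD24+ and Lin-), with 1 point per array, a bar at the group mean, a ring around pool F in normal CD29hiCD24+ and a dotted line at 2.83. In normal tissue all 10 genes were lower in the 3 CD29hiCD24+ arrays than in the 3 CD29+CD24+ arrays, and Cldn3 and Cldn7 in tumours lay below normal in CD29+CD24+ and Lin- cells.

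The first comparison within tissue asked how the CD29hiCD24+ gate differs from the CD29+CD24+ gate in normal glands. All 10 members fell in normal CD29hiCD24+ cells, with log2 differences from -5.34 (Cldn4) to -1.07 (Cd24a), and for all 10 the 3 CD29hiCD24+ arrays lay below the 3 CD29+CD24+ arrays. Over all genes tested 46.6% were called in this contrast and 25.3% were called lower, and 31.8% were lower without overlap of the groups. The members' median difference was -3.87, against -0.03 over all genes. CD24 was used to draw both gates, so the Cd24a difference is between populations chosen on its protein.

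Cldn3 and Cldn4 encode barrier claudins that serve as receptors of Clostridium perfringens enterotoxin. Cldn4 had 4.91, 10.46 and 10.06 in normal CD29hiCD24+ cells of pools F, G and H, against 14.03, 13.69 and 13.74 in normal CD29+CD24+ cells. Pool F was by far the lowest, and all 3 pools were lower in the CD29hiCD24+ gate. The difference was -5.34 ± 1.08 (adjusted p = 0.000343), and -3.56 without the pool F array (adjusted p = 0.00202). Cldn3 had 6.46, 10.02 and 9.59 in normal CD29hiCD24+ cells, against 13.09, 12.73 and 12.70 in normal CD29+CD24+ cells, a difference of -4.15 ± 0.98 (adjusted p = 0.00143). Pools G and H again lay between pool F and the other gate.

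Cldn7, the claudin that binds EpCAM, had 6.73, 9.85 and 9.48 in normal CD29hiCD24+ cells, against 12.91, 12.62 and 12.82 in normal CD29+CD24+ cells (-4.10 ± 1.07, adjusted p = 0.00324). Cldn8, a claudin best known from kidney tubules, had 3.15, 5.37 and 7.21 in normal CD29hiCD24+ cells, against 9.62, 10.06 and 10.91 in normal CD29+CD24+ cells (-4.95 ± 1.07, adjusted p = 0.000649). Its spread among pools in the CD29hiCD24+ gate was the widest after that of Cldn4, at an SD of 2.03. Cldn1, the claudin that the epidermal barrier needs in mice, had 6.54, 7.47 and 8.36 in normal CD29hiCD24+ cells, against 8.99, 9.45 and 8.98 in normal CD29+CD24+ cells (-1.68 ± 0.44, adjusted p = 0.00368). Pool H was the closest to the other gate. The other Cldn1 probe sets gave -0.67 ± 0.54 and -0.01 ± 0.23 (adjusted p = 0.361 and 0.993 over probe sets), so the Cldn1 call rests on its main probe set. The first of these had 2.22, 3.04 and 2.49 in normal CD29hiCD24+ cells, against 3.34, 3.11 and 3.33 in normal CD29+CD24+ cells. The second was in the low band in both, at 2.52 to 2.59. Signals this low compress a difference, so these probe sets cannot decide the call.

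The plaque and tricellular genes had the largest differences of the 10 relative to their SE. Marveld2 (tricellulin) had 7.30, 8.65 and 8.42 in normal CD29hiCD24+ cells, against 11.39, 11.66 and 11.23 in normal CD29+CD24+ cells (-3.30 ± 0.41, adjusted p = 1.14e-06). Cgn (cingulin) had 3.51, 4.65 and 5.34 in normal CD29hiCD24+ cells, against 9.05, 9.57 and 9.13 in normal CD29+CD24+ cells (-4.75 ± 0.66, adjusted p = 4.96e-06). Tjp3 (ZO-3) had 3.002, 4.89 and 3.78 in normal CD29hiCD24+ cells, against 7.64, 7.41 and 7.56 in normal CD29+CD24+ cells (-3.65 ± 0.55, adjusted p = 1.37e-05). The signals of Cgn and Tjp3 in normal CD29hiCD24+ cells lay not far above the low band, where a fold is understated.

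The surface molecules differed by less. Epcam had 12.64, 13.40 and 13.38 in normal CD29hiCD24+ cells, against 14.42, 14.37 and 14.54 in normal CD29+CD24+ cells (-1.31 ± 0.25, adjusted p = 0.000177). Cd24a had 14.29, 14.42 and 14.39 in normal CD29hiCD24+ cells, against 15.47, 15.41 and 15.41 in normal CD29+CD24+ cells (-1.07 ± 0.19, adjusted p = 0.000103). The 3 pools were close together in each gate for Cd24a, with SDs of 0.07 in normal CD29hiCD24+ and 0.03 in normal CD29+CD24+ arrays. Without the pool F array all 10 members were still called lower, where 40.5% of all genes were called. Luminal marker means moved with the members, at 7.89 to 9.94 in normal CD29hiCD24+ and 11.62 to 11.82 in normal CD29+CD24+ arrays, and basal means moved the other way, at 12.21 to 12.51 in normal CD29hiCD24+ and 3.60 to 3.86 in normal CD29+CD24+ arrays (means over 9 luminal and 10 basal genes). Endothelial means (8 genes) were 6.86 to 9.75 in normal CD29hiCD24+ and 3.25 to 3.45 in normal CD29+CD24+ arrays, and fibroblast means (8 genes) 5.29 to 6.60 in normal CD29hiCD24+ and 3.37 to 3.63 in normal CD29+CD24+ arrays. Squamous means (10 genes) were lower, at 4.05 to 4.77 in normal CD29hiCD24+ and 5.49 to 5.62 in normal CD29+CD24+ arrays. The 3′ minus 5′ signal of the actin control probe sets, a sign of RNA shortening, was also apart, at 2.20 to 2.89 in normal CD29hiCD24+ and 1.41 to 1.83 in normal CD29+CD24+ arrays. The part of these markers in the result was not tested, and with the actin signal as a covariate 9 of 10 members were called lower, where 36.4% of all genes were called. Cldn7 lost its call with it (-3.31, adjusted p = 0.0537).

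In tumours fewer members were called between the gates. Of the 10 members 4 fell in tumour CD29hiCD24+ cells, none rose and 6 were not called, where 4.19% of all genes were called and 1.94% were called lower. The count was 2 when any 1 of tumours A, B, C and E or pool H was left out of the shared fit. Marveld2 had 6.24, 8.01, 7.96, 7.41 and 7.41 in CD29hiCD24+ cells of tumours A to E, against 9.63, 9.81, 8.82, 8.94 and 8.92 in their CD29+CD24+ cells (-1.81 ± 0.31, adjusted p = 0.00234). Cldn1 had 8.33, 9.02, 9.27, 9.30 and 8.87 in tumour CD29hiCD24+ cells, against 10.48, 10.18, 10.64, 10.54 and 10.88 in tumour CD29+CD24+ cells (-1.59 ± 0.34, adjusted p = 0.012). For both genes every CD29hiCD24+ array was below every CD29+CD24+ array. Of the other Cldn1 probe sets one was called as well (-1.68 ± 0.42, adjusted p = 0.0328 over probe sets). The other, mostly in the low band, was not (-0.24 ± 0.18, adjusted p = 0.522 over probe sets). Tjp3 had 4.41, 3.85, 3.64, 4.12 and 3.40 in tumour CD29hiCD24+ cells, against 7.36, 5.34, 5.57, 4.93 and 4.52 in tumour CD29+CD24+ cells (-1.66 ± 0.42, adjusted p = 0.0312), also without overlap. These 3 members compare with 5.05% of all genes whose groups did not overlap. Cgn had 4.09, 3.98, 4.17, 3.99 and 4.47 in tumour CD29hiCD24+ cells, against 7.82, 6.35, 5.96, 5.64 and 4.05 in tumour CD29+CD24+ cells (-1.82 ± 0.51, adjusted p = 0.0454), and its groups overlapped, since in tumour E the CD29+CD24+ array was the lower one. The other Cgn probe set, near the low band in tumours, gave -0.02 ± 0.22 (adjusted p = 0.996 over probe sets). Adjusted over probe sets the main one had 0.0505, so this Cgn call depends on the probe set and on the adjustment. Luminal means were 6.74 to 7.89 in tumour CD29hiCD24+ and 7.60 to 10.69 in tumour CD29+CD24+ arrays, and basal means 8.85 to 10.75 in tumour CD29hiCD24+ and 8.36 to 8.82 in tumour CD29+CD24+ arrays, and their part in the result was not tested. The CD29hiCD24+ array of tumour E stood apart, with a basal mean of 8.85, against 10.12 to 10.75 in tumours A to D. Its own CD29+CD24+ array had 8.82. It also had the lowest Cd24a (12.92) and Epcam (12.67) of the tumour CD29hiCD24+ arrays.

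The 2 gates of a tumour come from the same tumour, and a fit with tumour as a replicate block changed the calls of Cldn3 and Cldn7. Cldn3 had 7.85, 6.36, 7.05, 5.73 and 5.98 in tumour CD29hiCD24+ cells, against 10.80, 9.86, 7.43, 7.84 and 7.19 in tumour CD29+CD24+ cells (-2.03 ± 0.76, adjusted p = 0.133 without the block and 0.0198 with it). Cldn7 had 6.19, 6.56, 5.995, 4.47 and 5.34 in tumour CD29hiCD24+ cells, against 10.46, 9.76, 6.39, 7.48 and 6.10 in tumour CD29+CD24+ cells (-2.33 ± 0.83, adjusted p = 0.113 without the block and 0.0127 with it). Both genes were lower in the CD29hiCD24+ gate of all 5 tumours, but tumour to tumour differences were as large as the gate differences, and tumours A and B had the highest CD29+CD24+ signals. With the block 6 members were called lower, where 15.4% of all genes were called. Cldn4 was also lower in 5 of 5 tumours (-1.95 ± 0.84, 95% interval -3.69 to -0.21, adjusted p = 0.195) and was not called in either fit. Cd24a (-0.41 ± 0.15, adjusted p = 0.12) and Epcam (-0.21 ± 0.19, 95% interval -0.61 to 0.19, adjusted p = 0.629) were each lower in 4 of 5 tumours and not called. Cldn8 had 10.34, 9.05, 7.03, 8.43 and 6.41 in tumour CD29hiCD24+ cells, against 10.95, 8.65, 7.02, 7.79 and 7.64 in tumour CD29+CD24+ cells, and was lower in 2 of 5 tumours (-0.16 ± 0.83, 95% interval -1.88 to 1.56, adjusted p = 0.977).

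**Figure D2:**
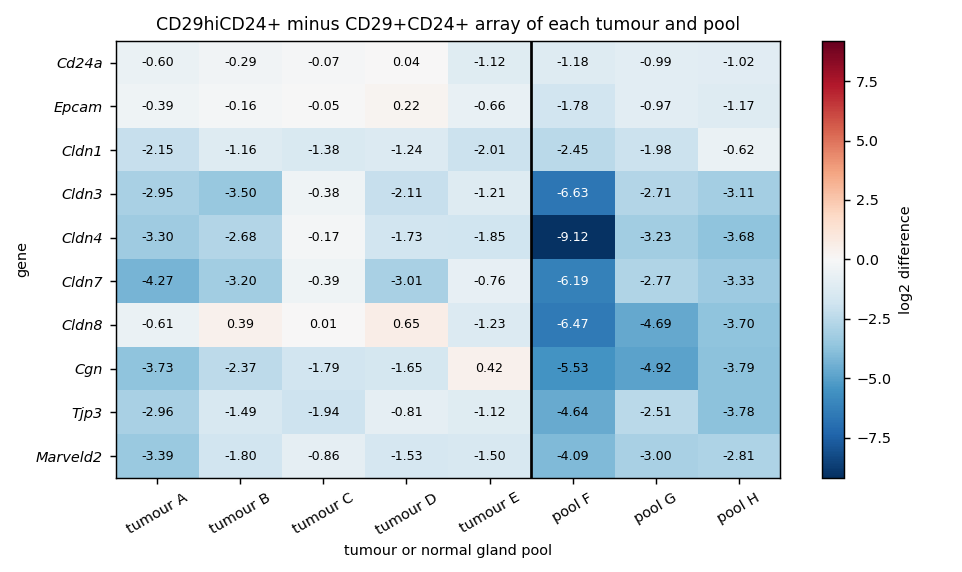
Each cell gives the log2 signal of the CD29hiCD24+ array minus that of the CD29+CD24+ array of 1 tumour (A to E, left) or 1 normal pool (F to H, right) for each gene, with blue for lower and red for higher in CD29hiCD24+. All 10 genes were lower in the 3 pools, while Cldn8 ran from -1.23 to 0.65 in the 5 tumours.

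Whether the gate difference itself differed between tissues was tested as the tumour gate difference minus the normal one. It was positive, so that the tumour gates lay closer together, for 6 members that passed the test, and 4 were not called. Over all genes 42.0% were called in this contrast and 22.2% were called higher. The largest was Cldn8, at 4.79 ± 1.35 (adjusted p = 0.00709), from within-tumour differences of -0.61, 0.39, 0.01, 0.65 and -1.23 and within-pool differences of -6.47, -4.69 and -3.70. Cgn followed at 2.92 ± 0.83 (adjusted p = 0.00741), with -3.73, -2.37, -1.79, -1.65 and 0.42 in tumours and -5.53, -4.92 and -3.79 in pools. For both genes every tumour was above every pool, as it was for Epcam (-0.66 to 0.22 in tumours, -1.78 to -0.97 in pools). For Cgn the gap was narrow, at -3.73 in tumour A against -3.79 in pool H. The share of all genes with such a separation was not computed, so it only describes the members. Tjp3 (1.98 ± 0.69, adjusted p = 0.0258), Marveld2 (1.49 ± 0.51, adjusted p = 0.0242), Epcam (1.10 ± 0.31, adjusted p = 0.00754) and Cd24a (0.66 ± 0.24, adjusted p = 0.0344) were also called. The other Cd24a probe sets gave 1.021 ± 0.25 (adjusted p = 0.00328 over probe sets) and 0.58 ± 0.25 (adjusted p = 0.0796 over probe sets). Cldn4 had 3.40 ± 1.36 (adjusted p = 0.0508, and 0.0208 with the replicate block, where it was called), Cldn3 2.12 ± 1.24 (adjusted p = 0.182), Cldn7 1.77 ± 1.35 (adjusted p = 0.319) and Cldn1 0.09 ± 0.56 (95% interval -1.08 to 1.26, adjusted p = 0.924). The block was here a shared correlation within tumour or pool (0.32), and not the term per tumour used between the tumour gates. Without the normal CD29hiCD24+ array of pool F 3 members were called, where 36.7% of all genes were, and Cd24a, Tjp3 and Marveld2 lost their calls (adjusted p = 0.0761, 0.0985 and 0.103). The count was 3 members without tumour D and 1 without all 3 arrays of pool F. With the actin signal as a covariate 1 member was called, where 33.3% of all genes were.

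**Figure D3:**
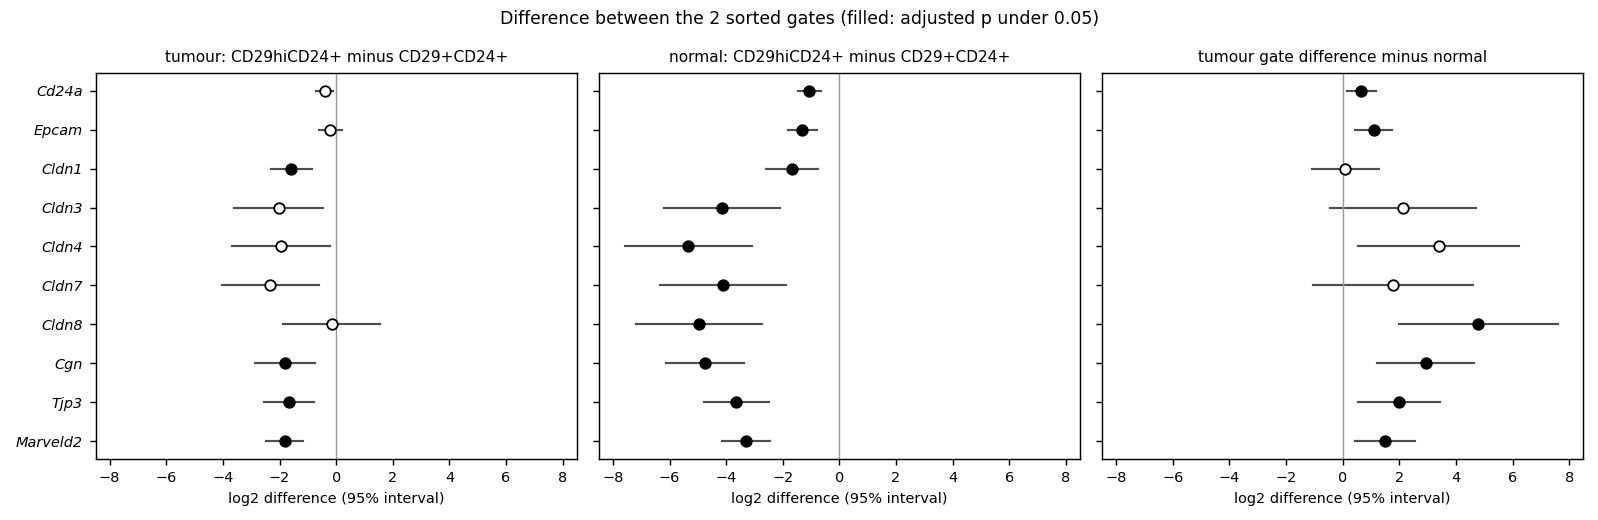
Log2 difference between CD29hiCD24+ and CD29+CD24+ cells (horizontal axis, point with its 95% interval) for each gene in tumours (left) and in normal glands (middle), and the tumour difference minus the normal one (right). Filled points have an adjusted p under 0.05: 4 genes in tumours, 10 in normal glands and 6 in the difference.

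The comparison of tumour with normal CD29hiCD24+ cells called members in both directions, at a share near that of all genes. In tumours 2 of them rose, 2 fell and 6 were not called, where 38.6% of all genes were called (15.6% higher and 22.9% lower). The median member difference was -0.18, against -0.01 over all genes. Without pool G 2 members were called. Marker means moved in the same contrast. Squamous means were 8.07 to 10.15 in tumour and 4.05 to 4.77 in normal CD29hiCD24+ arrays, basal means 8.85 to 10.75 in tumour CD29hiCD24+ against 12.21 to 12.51 in normal CD29hiCD24+ arrays, and luminal means 6.74 to 7.89 in tumour CD29hiCD24+ against 7.89 to 9.94 in normal CD29hiCD24+ arrays. Endothelial means were 2.85 to 3.83 in tumour and 6.86 to 9.75 in normal CD29hiCD24+ arrays, and the part of these markers in the result was not tested. This contrast uses the same normal CD29hiCD24+ arrays as the normal gate contrast. Cldn7 had 6.19, 6.56, 5.995, 4.47 and 5.34 in tumour CD29hiCD24+ cells, against 6.73, 9.85 and 9.48 in normal CD29hiCD24+ cells, with no overlap (-2.97 ± 0.95, adjusted p = 0.0173). Cd24a had 13.56, 13.62, 13.62, 14.05 and 12.92 in tumour CD29hiCD24+ cells, against 14.29, 14.42 and 14.39 in normal CD29hiCD24+ cells, also with no overlap (-0.81 ± 0.17, adjusted p = 0.00075). A second Cd24a probe set gave -0.54 ± 0.18 (adjusted p = 0.0250 over probe sets) and the remaining one -0.07 ± 0.18 (adjusted p = 0.820 over probe sets), so the Cd24a call in this gate depends on the probe set. Those 2 members are the ones whose groups did not overlap, against 37.0% of all genes.

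Cldn1 and Cldn8 were the members that rose. Cldn8 averaged 8.25 ± 1.58 in tumour CD29hiCD24+ cells (SD, n = 5) and 5.25 ± 2.03 in normal CD29hiCD24+ cells (SD, n = 3), a difference of 3.004 ± 0.95 (adjusted p = 0.0163). Cldn1 averaged 8.96 ± 0.39 in tumour CD29hiCD24+ cells (SD, n = 5) and 7.46 ± 0.91 in normal CD29hiCD24+ cells (SD, n = 3), a difference of 1.496 ± 0.40 (adjusted p = 0.00502). For both genes the groups overlapped, because pool H lay within the tumour range, and both calls were lost without the pool F array (1.96, adjusted p = 0.151, and 1.04, adjusted p = 0.062). Cldn3 and Marveld2 went the other way: they were not called with pool F (-2.10 ± 0.87, adjusted p = 0.0642, and -0.72 ± 0.36, adjusted p = 0.128) and were called lower without it (-3.21, adjusted p = 0.00845, and -1.13, adjusted p = 0.0277). Without that array, then, 4 members were called lower and 0 higher, where 32.7% of all genes were called. The differences of Cldn7 and Cd24a were -3.95 and -0.85 without it. Cldn4 averaged 8.48 in tumour and 8.48 in normal CD29hiCD24+ cells, and the interval of its difference, -2.01 to 2.01, is too wide to place it (adjusted p = 0.999). Without the pool F array the Cldn4 difference was -1.78 and still not called (adjusted p = 0.0845). Epcam (0.24 ± 0.22, adjusted p = 0.43), Cgn (-0.36 ± 0.59, adjusted p = 0.673) and Tjp3 (-0.01 ± 0.49, 95% interval -1.03 to 1.01, adjusted p = 0.991) were not called either.

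Outside the CD29hiCD24+ gate most members were lower in tumours. In CD29+CD24+ cells 8 of 10 fell and Cldn1 rose, where 43.5% of all genes were called (27.1% lower and 16.4% higher), and 9 members did not overlap between tumour and normal, against 44.8% of all genes. Cldn7 differed by -4.75 ± 0.95 (adjusted p = 0.000363) and Cldn3 by -4.22 ± 0.87 (adjusted p = 0.000487). Of the signals given above, tumours A and B lay closest to the pools for both genes, and C, D and E furthest below them. Cldn4 (-3.40 ± 0.96, adjusted p = 0.00673), Cgn (-3.28 ± 0.59, adjusted p = 0.000107), Marveld2 (-2.20 ± 0.36, adjusted p = 4.21e-05) and Tjp3 (-1.99 ± 0.49, adjusted p = 0.00221) fell as well. So did Cd24a (-1.47 ± 0.17, adjusted p = 5.2e-07) and Epcam (-0.86 ± 0.22, adjusted p = 0.00312). Cldn8 overlapped between tumour and normal because tumour A, at 10.95, was at the level of pool H, at 10.91 (-1.79 ± 0.95, adjusted p = 0.144). Marker means were apart without overlap in these arrays, at 8.36 to 8.82 in tumour and 3.60 to 3.86 in normal CD29+CD24+ arrays for basal genes and at 5.14 to 6.74 in tumour and 3.37 to 3.63 in normal CD29+CD24+ arrays for fibroblast genes. Leukocyte means (7 genes) were 3.21 to 4.84 in tumour and 2.72 to 2.94 in normal CD29+CD24+ arrays, and the part of these markers in the result was not tested.

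Cldn1 rose in tumour CD29+CD24+ cells by 1.41 ± 0.40 (adjusted p = 0.0066) and in tumour Lin- cells by 2.29 ± 0.40 (adjusted p = 9.15e-05). In Lin- cells it had 9.74, 10.996, 11.66, 11.62 and 11.90 in tumours A to E, against 9.11, 8.96 and 8.60 in pools F to H, so each tumour was above each pool. A second Cldn1 probe set gave 2.50 ± 0.49 in CD29+CD24+ cells and 3.67 ± 0.49 in Lin- cells (adjusted p = 0.000292 and 4.59e-06 over probe sets). The third Cldn1 probe set, mostly in the low band, gave 0.22 ± 0.21 and 0.31 ± 0.21 and was not called. Squamous marker means were higher in tumours in the same populations, at 9.47 to 11.41 in tumour and 5.49 to 5.62 in normal CD29+CD24+ arrays and 10.49 to 12.47 in tumour and 5.38 to 5.57 in normal Lin- arrays, and their part in the result was not tested.

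In Lin- cells 7 members fell, Cldn1 rose and 2 were not called, where 40.6% of all genes were called and 26.6% were called lower. Cldn7 had 8.36, 8.48, 5.39, 6.34 and 5.14 in tumour Lin- cells, against 12.63, 11.96 and 12.47 in normal Lin- cells (-5.61 ± 0.95, adjusted p = 7.41e-05). Cldn3 had 9.50, 9.28, 6.98, 7.36 and 6.31 in tumour Lin- cells, against 12.94, 12.59 and 12.82 in normal Lin- cells (-4.90 ± 0.87, adjusted p = 0.000124). In both genes tumours A and B were again the closest to the pools, and E was the furthest. Cgn (-3.75 ± 0.59, adjusted p = 2.83e-05), Marveld2 (-2.36 ± 0.36, adjusted p = 2.3e-05), Tjp3 (-1.47 ± 0.49, adjusted p = 0.0203), Cd24a (-1.45 ± 0.17, adjusted p = 8.45e-07) and Epcam (-0.62 ± 0.22, adjusted p = 0.0293) fell, while Cldn4 (-2.41 ± 0.96, adjusted p = 0.0516) and Cldn8 (-1.41 ± 0.95, adjusted p = 0.262) were not called. The other Epcam probe set gave -0.34 ± 0.19 (adjusted p = 0.194 over probe sets), so the Epcam call in Lin- cells depends on the probe set. Luminal marker means moved with the members, at 7.60 to 10.69 in tumour and 11.62 to 11.82 in normal CD29+CD24+ arrays and 6.71 to 9.18 in tumour and 11.29 to 11.69 in normal Lin- arrays, and their part in the result was not tested.

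**Figure D4:**
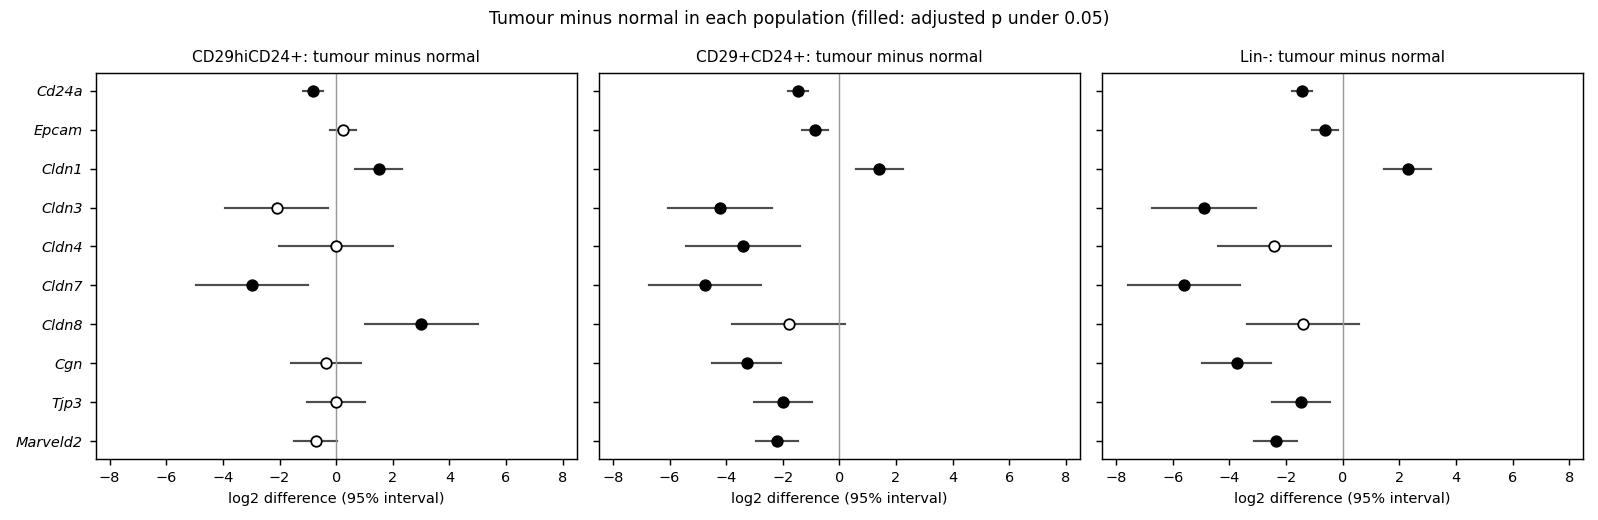
Log2 difference tumour minus normal (horizontal axis, point with its 95% interval) of each gene in CD29hiCD24+ (left), CD29+CD24+ (middle) and Lin- cells (right), with filled points for an adjusted p under 0.05. The members called number 4, 9 and 8, and Cldn1 is right of 0 in all 3 panels.

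The labels number the samples in 3 ranges, whose meaning they do not give: tumours A and B have 19 to 24, C and D 56 to 64, and tumour E and the 3 pools 82 to 95. Tumours A and B, the closest to the pools in Cldn3 and Cldn7 outside the CD29hiCD24+ gate, are thus the tumours of the first range. What sets them apart from the other tumours cannot be told apart from the range. Tumour and normal can be set side by side within the last range only. There tumour E lay below all 3 pools for 9 members in CD29+CD24+ cells and for 9 in Lin- cells, and above them for Cldn1. In CD29hiCD24+ cells tumour E lay below all pools for 3 members (Cd24a, Cldn3 and Cldn7), above them for Cldn1 and among them for 6. The share of all genes for which tumour E lay outside the pools was not computed. These counts therefore only describe the members. In CD29hiCD24+ cells, both these counts and the fit that follows rest on the tumour E array with the low basal mean (8.85). Its actin 3′ minus 5′ signal, at 2.47, was the highest of the 5 tumour CD29hiCD24+ arrays. With the range as a block, a fit whose tumour against normal difference rests on tumour E, Cldn8 lost its call in CD29hiCD24+ cells (1.91, adjusted p = 0.0772). In the same fit Cldn8 was called lower in tumour CD29+CD24+ cells (-2.88, adjusted p = 0.0109) and Lin- cells (-2.50, adjusted p = 0.0259), and Cldn3 was called lower in tumour CD29hiCD24+ cells (-3.30, adjusted p = 0.00166).

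Against the ungated Lin- cells, the CD29hiCD24+ gate was lower for all 10 members in normal glands, where 40.2% of all genes were called, and for Cldn1 (-2.23), Tjp3 (-2.08) and Marveld2 (-1.49) in tumours, where 8.36% were. Without the normal CD29hiCD24+ array of pool F 8 members were called in normal glands, where 33.3% of all genes were. In limma's test no member differed between CD29+CD24+ and Lin- cells, in tumours (0.215% of all genes called) or in normal glands (4.19%), and 0 members had an unadjusted p under 0.05 in either. A fit with the replicate block also called 0 in both. The 6 group means of Cldn3, from high to low, ran from normal CD29+CD24+ (12.84) and normal Lin- (12.78), which did not differ beyond their spread, over normal CD29hiCD24+ (8.69), tumour CD29+CD24+ (8.62) and tumour Lin- (7.89), to tumour CD29hiCD24+ (6.59), and the arrays of these last 4 groups overlapped. For Cldn1 the order was tumour Lin- (11.18), tumour CD29+CD24+ (10.54), normal CD29+CD24+ (9.14), tumour CD29hiCD24+ (8.96), normal Lin- (8.89) and normal CD29hiCD24+ (7.46), and the arrays of the middle 3 groups overlapped. For Cldn8, normal CD29hiCD24+ (5.25) was the lowest mean of the 6 and normal CD29+CD24+ (10.20) the highest, with the 3 tumour populations between 7.82 and 8.41 and overlapping.

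The members moved together to different degrees. Over the 24 arrays Pearson's r was positive for 42 of the 45 pairs of members, with a median of 0.80. This correlation is a description, since the arrays share groups, tumours and pools. With group means removed the median was 0.42 and 41 pairs were positive. Cldn3 and Cldn7, on chromosomes 5 and 11, were the closest pair, at 0.98 over 24 arrays, 0.95 with group means removed and 0.95 over the deviations of the 15 tumour arrays. Cldn1 stood apart: its r with the mean of the other members was -0.02, against 0.64 for Cldn8, 0.78 for Cd24a and 0.86 to 0.93 for the other 7. Over the deviations of the 15 tumour arrays Cldn1 and Cldn3 had an r of -0.71, and tumours A and B, high in Cldn3 and Cldn7, had lower Lin- signals of Cldn1 than tumours C, D and E. Tumours A and B are also those numbered 19 to 24, so tumour and number range cannot be told apart in these correlations.

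**Figure D5:**
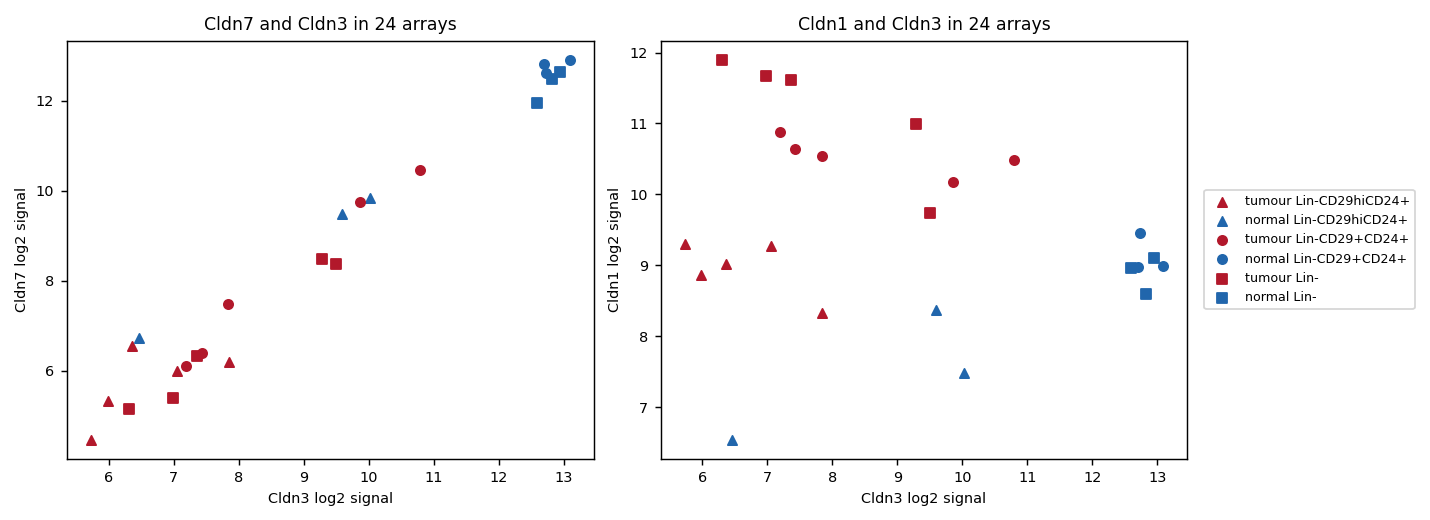
Cldn7 (left) and Cldn1 (right) log2 signal on the vertical axis against Cldn3 log2 signal on the horizontal axis in the 24 arrays, tumour red and normal blue, with triangles for CD29hiCD24+, circles for CD29+CD24+ and squares for Lin- cells. Cldn7 followed Cldn3 over the whole range (r = 0.98), while tumour E, lowest in Cldn3 within CD29+CD24+ and within Lin- cells, was highest in Cldn1 in both.

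Genes outside the members whose signals were most like the members' mean (each member centred on its own mean, 24 arrays) were Sytl2, at r = 0.952, Cobl (0.951), St14 (0.951), Ssx2ip (0.945), Foxa1 (0.941), Rbm47 (0.938), Sec11c (0.937), Mboat1 (0.937), Esrrg (0.936) and Smim14 (0.932). The lowest r were those of Caskin2 (-0.900), Mb21d2 (-0.899), Nrp2 (-0.898), 2810025M15Rik (-0.894) and Ak4 (-0.891). St14 encodes matriptase, a membrane protease that cleaves EpCAM, and Foxa1 a luminal transcription factor. St14 was listed among EpCAM and CD24 partners, of which 7 of 10 were tested.
In normal CD29hiCD24+ against CD29+CD24+ cells 4 of these 7 fell, namely Prss8 (-4.40 ± 0.45), which encodes the protease prostasin, the protease inhibitor genes Spint1 (-3.38 ± 0.37) and Spint2 (-1.18 ± 0.17), and St14 (-2.08 ± 0.27). The 2 that rose were Selp (7.94 ± 1.18), which encodes the CD24 ligand P-selectin, and the kinase gene Fyn (5.26 ± 0.43). Over all genes tested 25.3% were called lower and 21.3% higher in this contrast. The Selp and Fyn differences are given with the pool F array only. In tumours Prss8 (-1.55 ± 0.35) and Spint1 (-1.12 ± 0.29) fell in the same gate contrast and 5 were not called, where 1.94% of all genes were called lower. Between tumour and normal CD29hiCD24+ cells Spint1 rose (1.09 ± 0.33), Prss8 (-1.12 ± 0.41) and Selp (-6.88 ± 1.06) fell, and 4 were not called. The shares over all genes were 15.6% called higher and 22.9% called lower. Without the normal CD29hiCD24+ array of pool F Spint1 was not called (0.54, adjusted p = 0.175).

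Other tight junction genes went both ways in the normal CD29hiCD24+ gate. Of 48 listed, 37 were tested, and 9 rose, 12 fell and 16 were not called there. Over all genes tested 21.3% were called higher and 25.3% lower. The median of the 37 was -0.06, against -0.03 over all genes. The lowest called were Ocln (-4.31 ± 0.71), which encodes occludin, Cldn10 (-4.18 ± 0.64), the junctional adhesion gene Igsf5 (-4.07 ± 0.51) and Marveld3 (-3.93 ± 0.60), a relative of tricellulin. The highest were Jam2 (6.83 ± 0.85), the scaffold gene Mpdz (6.31 ± 0.28), Cldn5 (5.44 ± 0.77), the claudin of blood vessels, and Amotl1 (3.42 ± 0.35). Endothelial marker means, Cldn5 among them, were 6.86 to 9.75 in normal CD29hiCD24+ and 3.25 to 3.45 in normal CD29+CD24+ arrays, and their part in the result was not tested. The differences of these tight junction genes are given with the pool F array only, whose endothelial mean was the highest (9.75).
In tumours 0 of the 37 rose and 5 fell in the CD29hiCD24+ gate, where 2.25% of all genes were called higher and 1.94% lower. The median of the 37 was -0.18, against 0.00 over all genes. The lowest 4 were Ocln (-2.04 ± 0.55), the scaffold genes Magi3 (-1.16 ± 0.28) and Tjp1 (-0.82 ± 0.16), which encodes ZO-1, and Mpp5 (-0.75 ± 0.20), a polarity scaffold gene. Between tumour and normal CD29hiCD24+ cells 6 rose, 11 fell and 20 were not called, where 15.6% of all genes were called higher and 22.9% lower. The median of the 37 was -0.41, against -0.01 over all genes. The highest were Ildr2 (5.76 ± 0.68), Cldn11 (3.07 ± 1.17), Cldn23 (1.78 ± 0.37) and Amotl2 (1.51 ± 0.27), and the lowest Jam2 (-6.24 ± 0.76), Cldn5 (-5.45 ± 0.69), Cldn10 (-2.68 ± 0.57) and Magi1 (-1.94 ± 0.26). Of these 8, Cldn11 lost its call without the pool F array (3.02, adjusted p = 0.101). Endothelial means were 2.85 to 3.83 in tumour CD29hiCD24+ arrays, below all 3 normal ones.

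Regulators of epithelial genes were also listed, namely 16 transcription factors and the splicing regulators Esrp1 and Esrp2, and 17 of 18 were tested. In the normal CD29hiCD24+ gate 4 rose and 7 fell, where 21.3% of all genes were called higher and 25.3% lower. The median of the 17 was -0.18, against -0.03 over all genes. Elf5 also stands in the luminal and Trp63 in the basal marker list. Those that rose were Snai2 (9.49 ± 0.44), which encodes the E-box repressor Slug, the basal regulator Trp63 (9.32 ± 0.37), the E-box repressor gene Zeb1 (2.70 ± 0.90) and Klf4 (0.37 ± 0.11). Zeb1 and Klf4 were not called without the pool F array (1.499, adjusted p = 0.169, and 0.25, adjusted p = 0.0631). The lowest 4 were the ETS factors Ehf (-4.44 ± 0.64), Elf5 (-4.12 ± 0.94) and Elf3 (-3.40 ± 0.57) and the grainyhead-like gene Grhl1 (-3.21 ± 0.43). Snai2 signals ran from 12.63 to 13.22 in tumour CD29hiCD24+ and from 12.85 to 13.72 in tumour CD29+CD24+ arrays, and from 13.70 to 13.79 in normal CD29hiCD24+ and from 3.67 to 4.80 in normal CD29+CD24+ arrays. The normal gates lay far apart in Snai2 and the tumour gates overlapped.
In the tumour gate contrast 0 rose and Elf5 (-2.88 ± 0.73), Grhl3 (-1.58 ± 0.41) and Grhl1 (-1.30 ± 0.33) fell, where 1.94% of all genes were called lower. The median of the 17 was -0.26, against 0.00 over all genes. Between tumour and normal CD29hiCD24+ cells 9 rose and 1 fell, where 15.6% of all genes were called higher and 22.9% lower. The median of the 17 was 0.93, against -0.01 over all genes. The highest were Ehf (6.35 ± 0.58), Grhl3 (5.74 ± 0.48), Ovol1 (5.64 ± 0.48) and Klf5 (1.68 ± 0.27), and Zeb1 fell (-2.90 ± 0.81). Without the pool F array Zeb1 was not called (-1.70, adjusted p = 0.097) and Elf5 was called lower (-3.53, adjusted p = 0.000492).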

How the data were processed

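The values are the log2 signals per probe set deposited by the authors, made from RNA of sorted cells that was amplified in 2 cycles and biotin-labelled, per the labels. RMA, GCRMA and Partek are named in the submitters' processing notes, without versions, roles or an order. That the scale is log2 follows from the range of the values (0.489 to 16.06). Amplification from few cells can favour the 3′ end of transcripts.

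Of 45101 probe sets 64 were controls, 34945 had 1 gene name, 932 several and 9160 none. A probe set was kept if 3 or more arrays exceeded 2.83, the 40th percentile over the whole table (24278 probe sets), and the kept one with the highest mean stood for its gene. limma 3.58.1 in R 4.3.3 fitted 1 mean per group over the 24 arrays with a variance trend, and p-values were Benjamini-Hochberg adjusted over 13485 genes. The script was tested on simulated data. Single-probe-set results were adjusted over all kept probe sets. For Cldn3 the main probe set is of a kind that can also bind related transcripts, and its other 3 probe sets had the same sign in each tumour against normal contrast.

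Samples with the same letter come from the same tumour or pool per the titles; 2 titles of pool H carry no letter and were placed by elimination. Arrays of the same tumour correlated, with group means removed, at a median r of 0.578 (15 pairs) and arrays of different tumours at -0.167 (60 pairs). For pools the medians were 0.142 (9 pairs) and -0.0705 (18 pairs).

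The members, the gene lists, the tests and the alternatives were chosen with earlier results of these data known. All members are named. From the other lists the text names up to 4 highest and 4 lowest called genes per contrast, and the 10 most and 5 least like the members' mean. The EpCAM and CD24 partners called in these contrasts are all named. The alternatives were other filters, probe set rules, a quantile normalisation, a replicate block, covariates, and leaving out arrays. The replicate block had a different form by contrast. Between populations of the same tissue it was a term for each tumour or pool. For tumour against normal and for the gate difference it was a shared correlation of arrays with the same letter.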

Additional observations from a re-analysis of the deposited data

Results flagged for a closer look

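The difference between the CD29hiCD24+ and CD29+CD24+ gates was not the same in tumours as in normal glands for 6 members, by the test of the difference itself in limma's fit over all genes. The tumour gate difference minus the normal one was 0.66 ± 0.24 for Cd24a (adjusted p = 0.0344), 1.10 ± 0.31 for Epcam (adjusted p = 0.00754) and 4.79 ± 1.35 for Cldn8 (adjusted p = 0.00709). It was 2.92 ± 0.83 for Cgn (adjusted p = 0.00741), 1.98 ± 0.69 for Tjp3 (adjusted p = 0.0258) and 1.49 ± 0.51 for Marveld2 (adjusted p = 0.0242). Of all genes tested 42.0% were called in this contrast. The calls of Cd24a, Tjp3 and Marveld2 were lost without the normal CD29hiCD24+ array of pool F, which left 3 members called. A check for single far samples over the 30 groups of 5 tumour arrays (10 members in 3 populations) found none, and the groups of 3 pools are too small for it.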

How the results depend on the processing

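Of 1800 recomputed member differences 1655 kept their direction and their side of the threshold, 77 lost their call, 32 gained one and 36 changed sign. None of the 36 was called in either fit. Not all of the 1800 could change direction. A fit without the variance trend leaves the estimate as it was, and leaving out a tumour leaves differences between normal arrays as they were. The 1655 are therefore not a measure of stability. With the tumour or pool as a replicate block, the genes called numbered 2080 against 565 in the main fit between the tumour CD29hiCD24+ and CD29+CD24+ gates, 2531 against 1128 for tumour CD29hiCD24+ against Lin-, and for CD29+CD24+ against Lin- 81 against 29 in tumours and 903 against 565 in normal glands. The calls that either form of the block changed for Cldn3, Cldn7 and Cldn4 stand beside their results, and Cldn4 was also called between tumour CD29hiCD24+ and Lin- cells. The block changed no other member call. With the description-number range as a block the counts were 1263, 1876 and, for tumour CD29+CD24+ against Lin-, 45. With the compared groups fitted alone they were 149, 465 and 0, and 2 members were called between the tumour gates. Asking for a 2-fold difference left 304 and 667, and 3418 of 5199 between tumour and normal CD29hiCD24+ cells. The 29 genes became 13 with no filter, 14 with every probe set tested and 15 with no variance trend. For the gate difference between tissues, 1 member was called with the actin covariate and 3 without the pool F CD29hiCD24+ array, against 6.

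Leaving out each tumour or pool in turn gave 2 to 5 members called between tumour and normal CD29hiCD24+ cells, 2 to 4 members and 207 to 565 genes between the tumour gates, and 1 to 6 members for the gate difference. It gave 5 to 10 members (5 without pool F) and 3491 to 5569 genes for normal CD29hiCD24+ against Lin-, 469 to 1042 genes for the same in tumours, and 0 to 83 genes for tumour CD29+CD24+ against Lin-. Quantile normalisation moved the median of all genes in the gate difference to 0.155, against 0.0381 as deposited. It moved the share of calls that were higher to 53.7%, against 40.5%, between tumour and normal CD29hiCD24+ cells, to 69.5%, against 53.8%, between the tumour gates, and to 61.6%, against 44.7%, for tumour CD29hiCD24+ against Lin-. The number of arrays limits the precision, and the cause of these changes was not tested.

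Between tumour and normal CD29hiCD24+ cells Epcam changed sign with the description-number range as a block (-0.16) and without the pool F array (-0.011), Cldn4 with the actin covariate (-1.11) and without the pool F array (-1.78), and Tjp3 with quantile normalisation (0.058). The Cldn1 gate difference did so with the mean of the kept probe sets (-0.38), with the actin covariate (-0.10) and without the pool F array (-0.37). Epcam in tumour CD29hiCD24+ against Lin- cells did so with the mean of the probe sets (0.017) and with quantile normalisation (0.018). Between normal CD29+CD24+ and Lin- cells the actin covariate turned Cldn3 (-0.37), Cldn4 (-0.56), Cldn7 (-0.015), Cldn8 (-0.077), Tjp3 (-0.27), Marveld2 (-0.0096) and Cgn (0.24). Cgn also turned there with the mean of the probe sets (0.16) and with quantile normalisation (0.030). Leaving out 1 tumour or pool gave a changed sign in 17 of the 36. Between tumour and normal CD29hiCD24+ cells the differences ran from -0.011 to 0.42 (Epcam), -1.78 to 0.99 (Cldn4), -0.85 to 0.062 (Cgn) and -0.45 to 0.49 (Tjp3). They ran from -0.36 to 0.11 for Cldn8 between the tumour gates, -0.29 to 0.62 for the Cldn1 gate difference and -0.17 to 0.044 for Epcam in tumour CD29hiCD24+ against Lin- cells. For CD29+CD24+ against Lin- they ran from -0.20 to 0.064 (Cgn) and -0.067 to 0.38 (Marveld2) in normal glands and from -0.0058 to 0.20 (Epcam) in tumours.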
